A study of Mus musculus with 6 samples.

Results

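The integrin genes of T cells described here were Itgae, Itgal, Itga4, Itga6, Itgav, Itgb1, Itgb2, Itgb3, Itgb7 and Itgb8, which were chosen by gene symbol and made up 10 of the 16244 genes in the deposited table. Transcripts were measured by bulk RNA-seq in Th17 cells grown from naive CD4+ T cells, with spleen as the labelled tissue. The WT cells came from C57BL/6 mice. The N275D cells, labelled Mut, came from RORγtN275D knockin mice, which carry the substitution in every cell type and were made by CRISPR-Cas9 on the same background. Both genotypes were cultured for 3 days with anti-CD3 and anti-CD28 in a pathogenic Th17 cytokine mix that included IL-6, IL-1β and IL-23. The sources used here differ on whether TGF-β was also present, and the labels do not give the zygosity of the knockin donors or the age of the mice. There were 3 libraries per genotype, and nothing in the labels said whether they came from separate mice or cultures, so p-values measure only the spread between these libraries, which may be technical. No uncultured cells were among the 6 libraries, and the substitution itself cannot be read from a table of gene-level values.

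Integrins are heterodimers of 1 alpha and 1 beta chain that span the plasma membrane and bind matrix proteins, adhesion molecules on other cells or latent TGF-β. In many integrins the cytoplasmic tail of the beta chain binds talin and kindlin after signals from the T cell receptor or chemokine receptors. Their binding switches the extracellular part from a bent, low-affinity form to an extended, high-affinity form. T cells use αLβ2 (LFA-1) to hold on to ICAM-bearing cells, α4β7 to enter gut tissue through MAdCAM-1, α4β1 to bind VCAM-1 and fibronectin, αEβ7 to bind E-cadherin on epithelium, and αV with β1, β3 or β8 to bind RGD-containing ligands, among them the latent forms of TGF-β. A chain reaches the surface only with a partner, so a transcript level is not a surface level of any dimer.

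Of the 10 integrin transcripts, 4 rose in N275D cells (Itgb3, Itgav, Itgb8 and Itgb7), 2 fell (Itgal and Itgb2) and 4 were not called (Itgae, Itga4, Itga6 and Itgb1). The test was limma across all 11908 genes with a mean of at least 10 normalized reads, and a gene was called at a Benjamini-Hochberg adjusted p under 0.05. The members called amounted to 6 of 10, beside 50.9% of all genes tested. The 4 higher members stood beside 24.7% of all genes called higher and the 2 lower members beside 26.1% called lower. Itgb3 was the 1 member that was both called and changed at least 2-fold, beside 3.59% of all genes in either direction and 2.73% of all genes in the higher direction. The 6 called members were also the 6 whose genotypes did not overlap, beside 57.7% of all genes. The median log2 fold change was 0.16 over the members and -0.00 over all genes tested, where the 5th and 95th percentiles were -0.45 and 0.74.

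**Figure D1:**
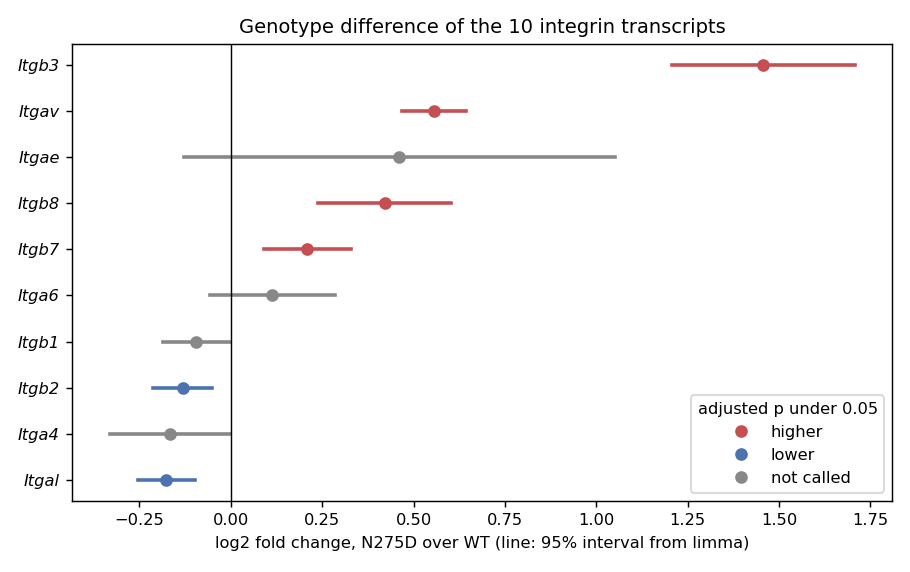
Each point is the log2 fold change (x axis, N275D over WT) of 1 integrin gene (y axis) and its line the 95% interval from limma, coloured by call. Itgb3 at 1.46 stands apart from the other 9 genes, the lowest is Itgal at -0.18, and the intervals of Itgae and Itga6 cross 0.

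The sequence around the start site is shown for 3 of the 4 members that rose together, Itgav, Itgb8 and Itgb7, since these have a window in the RefSeq table used (GRCm38.p6), which held 5 of the 10 members. Each window runs 5′ to 3′ on the gene's own strand from 250 bases before to 50 bases after the annotated start of transcription, and capitals mark a GC box. For Itgav and Itgb7 that start lies inside the outer bounds of the gene.
Itgav, chr2:83724147-83724446, plus strand: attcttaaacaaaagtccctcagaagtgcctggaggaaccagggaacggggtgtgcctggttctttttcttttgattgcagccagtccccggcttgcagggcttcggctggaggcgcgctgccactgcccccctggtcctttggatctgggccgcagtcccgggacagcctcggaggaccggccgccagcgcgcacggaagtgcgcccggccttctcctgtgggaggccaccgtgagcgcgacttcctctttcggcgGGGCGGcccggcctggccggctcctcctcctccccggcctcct
Itgb8, chr12:119238227-119238526, minus strand: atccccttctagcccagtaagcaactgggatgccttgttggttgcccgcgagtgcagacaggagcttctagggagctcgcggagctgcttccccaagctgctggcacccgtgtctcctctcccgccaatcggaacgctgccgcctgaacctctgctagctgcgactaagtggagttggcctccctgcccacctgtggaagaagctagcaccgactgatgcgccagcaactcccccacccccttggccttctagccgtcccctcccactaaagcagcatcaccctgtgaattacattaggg
Itgb7, chr15:102231886-102232185, minus strand: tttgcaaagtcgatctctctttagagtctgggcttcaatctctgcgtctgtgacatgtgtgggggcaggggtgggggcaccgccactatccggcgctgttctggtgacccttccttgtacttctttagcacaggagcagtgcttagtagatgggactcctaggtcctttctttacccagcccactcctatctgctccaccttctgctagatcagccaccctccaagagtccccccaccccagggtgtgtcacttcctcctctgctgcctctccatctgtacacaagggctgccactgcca

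A set of 6 short motifs, chosen after the values were seen, were searched on both strands of all 5 windows (the 3 printed, Itga4 and Itgb1). The HIF core ACGTG was in 0 of 5 windows, while 19.6% of the 32851 windows of this length in the table hold it, and the ROR motif AGGTCA was in 0 of 5, while 16.3% of all windows hold it. The AP-1 motif TGANTCA was likewise in 0 of 5, with 7.81% of all windows holding it. The GC box GGGCGG was in 3 of 5 (Itgav, Itga4 and Itgb1) against 35.7% of all windows, and in Itgav it lay 7 bases after the start. Itga4 also held the RUNX letters TGTGGT (16.8% of all windows), 60 bases before its start, and Itgb1 held the ETS letters CCGGAA (14.9%). The windows of Itgav and Itgb1 were 67.3% G and C, that of Itga4 64.3%, that of Itgb8 60.7% and that of Itgb7 56.3%, while the median over all windows was 52.7%. A match is a stretch of letters and no match says only that these letters are not in the window.

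The libraries held between 17659035 and 18510878 reads on genes. WT library 3 lay farthest from its group, with a median absolute log2 difference of 0.103 from the other WT libraries, against 0.0557 to 0.0755 for the remaining 5 libraries. The T cell and Th17 markers were detected. Of those reported here, Il17a, Il17f, Il23r and Cd28 were called higher, Cd3e, Cd4, Cd5 and Lck lower, and Cd3d, Cd3g and Thy1 were not called. Among these T cell markers the log2 fold changes of Cd5 (-0.30), Cd4 (-0.27), Cd3e (-0.22) and Lck (-0.17) were negative. Those of Cd28 (0.15), Thy1 (0.09), Cd3d (0.05) and Cd3g (0.04) were positive. Both sets can be read beside the values of Itgal and Itgb2. Il17a was 27495 ± 365 normalized reads in WT and 32152 ± 458 in N275D (SD, n = 3), and Cd4 was 9143 ± 331 and 7591 ± 26.1.

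Some markers of other cells differed between the genotypes, so their values are given beside the integrins. The counts of called markers stand beside 24.7% of all genes called higher and 26.1% called lower. The summed level of 9 B cell markers ran from 1188 to 1238 normalized reads in WT and from 1780 to 1848 in N275D, with 6 of 8 tested markers higher, and Ebf1 alone made up 986 and 1479 of it. The 6 CD8 T and NK cell markers analysed summed to 210–221 in WT and 294–334 in N275D, with 3 of 4 tested markers higher. These were Cd8b1 (mean 98.9 in WT and 148 in N275D), Eomes (56.4 and 91.7) and Klrd1 (20.7 and 36.9). Cd8a was not called (log2 fold change -0.22). The 5 dendritic cell markers analysed summed to 478–593 and 644–680, with 2 of 4 higher, and the 8 myeloid markers to 108–135 and 127–163, with 1 of 4 higher and 1 lower. Of the dendritic cell markers, Batf3 rose from 319 to 408 and Flt3 from 21.3 to 44.2, while Wdfy4 and Zbtb46 were not called. Among γδ T cell markers 1 of 6, Sox13, was analysed here, at 18.2–31.4 in WT and 35.1–38.5 in N275D. In bulk RNA fewer cells of a type and less RNA per cell cannot be told apart, and the part of these cells in any integrin value was not tested.

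Levels of different genes were compared as normalized reads per kilobase of the longest coding transcript (GENCODE annotation), a scale that assumes this transcript is the one expressed. Itgal, which encodes the αL chain of LFA-1, had the highest level in both genotypes, 2445 ± 119 per kb in WT and 2163 ± 9.79 in N275D (SD, n = 3). Itgb2, its β2 partner, came next at 1221 ± 34.7 and 1114 ± 15.9, and Itgb1, the shared β1 chain, followed at 965 ± 57.8 and 902 ± 3.84. These 3 genes of the lymphocyte adhesion machinery did not overlap with each other or with any other member over the 3 libraries of either genotype.

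A middle tier held Itgav, Itgb7 and Itga6. In WT, Itgav was at 225 ± 5.67 per kb and Itgb7 at 213 ± 8.10, and their libraries overlapped, so their order is not resolved. In N275D, Itgav at 331 ± 5.15 stood clear of Itgb7 at 246 ± 7.09. Itga6, the laminin-binding α6 chain, was lower at 119 ± 13.6 and 129 ± 10.5.

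Itga4, Itgb8, Itgb3 and Itgae made up the lowest tier. Itga4 was at 31.6 ± 2.36 per kb in WT and 28.1 ± 1.58 in N275D. Itgb8 was at 21.7 ± 0.662 and 29.2 ± 2.57, below every WT library of Itga4 but overlapping with Itga4 in N275D. Itgb3 moved from 9.21 ± 0.999 to 25.5 ± 0.408, and Itgae was last at 3.72 ± 0.503 and 5.36 ± 1.59. On the coding length alone, without the untranslated parts, Itgb2 and Itgb1 overlapped and Itgav and Itgb7 no longer did over the 6 libraries.

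**Figure D2:**
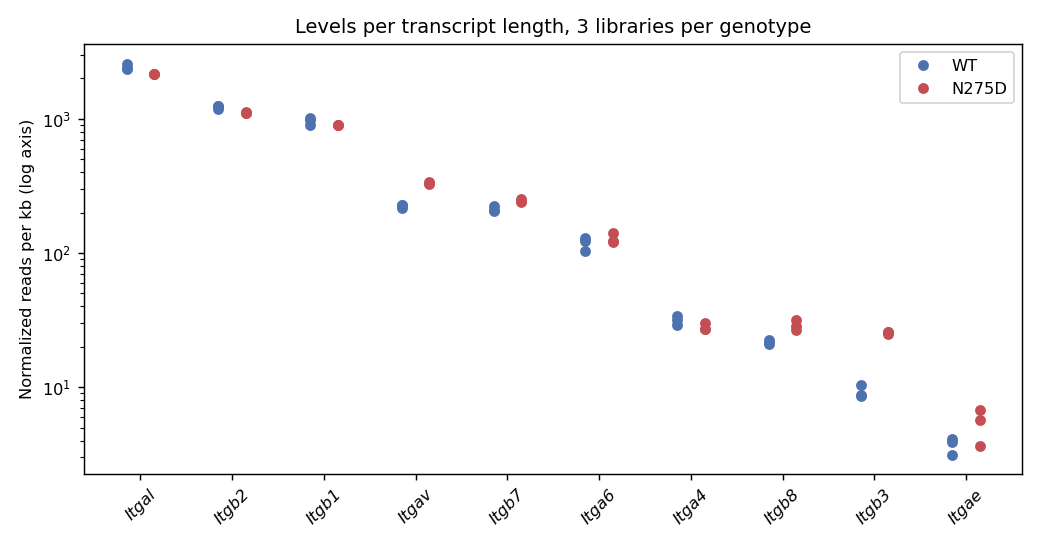
Each point is 1 library's normalized reads per kb of the longest coding transcript (y axis, log scale) for 1 integrin gene (x axis), with WT and N275D side by side. Itgal is highest at 2445 in WT and Itgae lowest at 3.72, and Itgb3 moves from 9.21 to 25.5.

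Among the αV integrins, the αV chain and its β3 and β8 partners rose in N275D cells and the β1 partner was not called. Itgb3 encodes β3, the chain that pairs with αV on many cells and with αIIb on platelets (chr11:104608000-104670476, plus strand). Its values were 50.5, 49.4 and 59.9 normalized reads in the WT libraries and 145, 148 and 149 in the N275D libraries. Every N275D library was above every WT library, with a ratio of means of 2.77 (log2 fold change 1.46, SE 0.12, 95% interval 1.21 to 1.71, limma adjusted p = 5.61e-08). This was the largest change among the members, from the second lowest level per length.

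Because β3 is also a platelet protein, the platelet markers belong beside this value. None of the 8 markers (Pf4, Ppbp, Gp1ba, Gp1bb, Gp5, Gp6, Gp9 and Gata1) reached a mean of 10 normalized reads, and their summed level was 13.1–15.7 in WT and 38.1–57.9 in N275D. Gp9, which encodes a subunit of the platelet von Willebrand factor receptor, was at 0 in 3 of 3 WT libraries and between 1.00 and 1.98 in N275D. The platelet chemokine gene Pf4 had at most 3.03 normalized reads in WT and at least 8.98 in N275D, and Ppbp at most 3.93 and at least 7.02. The remaining platelet markers are given only within the sum. Itga2b, which encodes αIIb, was 28.6 ± 3.32 in WT and 47.2 ± 2.39 in N275D (log2 fold change 0.71, SE 0.17, limma adjusted p = 0.00295). The share of the Itgb3 difference that platelet or megakaryocyte RNA carries was not tested.

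Itgav encodes the αV chain (chr2:83722303-83806917, plus strand), which pairs with β1, β3, β5, β6 and β8. It was 1606, 1611 and 1539 normalized reads in WT and 2326, 2299 and 2371 in N275D. The groups were far apart relative to their spread, at 1585 ± 40.0 and 2332 ± 36.3 (SD, n = 3), a ratio of 1.47 and a log2 fold change of 0.56 (SE 0.04, 95% interval 0.47 to 0.64, limma adjusted p = 1.9e-08). The annotation places the noncoding Gm13684 on the opposite strand with 634 shared exon bases. It was not analysed here.

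Itgb8 encodes β8 (chr12:119162803-119238276, minus strand), which pairs with αV alone and is known for releasing active TGF-β from its latent complex. Its values were 189, 182 and 178 normalized reads in WT and 269, 226 and 242 in N275D. All N275D libraries were higher, although they varied more among themselves, with a ratio of means of 1.34 (log2 fold change 0.42, SE 0.09, 95% interval 0.24 to 0.60, limma adjusted p = 0.000692). Itgb5, the β5 partner of αV and no member of the set, was also called higher, from 56.3 ± 3.29 to 84.7 ± 8.38. Itgb6, the β6 partner, was listed at 0 in 4 of the 6 libraries and was not tested.

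Set against one another per length, the summed level of Itgb1, Itgb3 and Itgb8 was 996 ± 57.2 per kb in WT and 957 ± 5.46 in N275D, and the genotypes overlapped. Its make-up differed between the genotypes without overlap. Itgb3 made up 0.931% ± 0.157 of it in WT and 2.66% ± 0.0576 in N275D, and Itgb8 made up 2.19% ± 0.105 and 3.05% ± 0.253. Itgb1 remained the bulk of this pool in both, at 96.9% ± 0.247 and 94.3% ± 0.207. The pool leaves out Itgb5 and counts all Itgb1, although β1 also pairs with α3, α4, α6 and α7. The shares therefore do not describe the β chains paired with αV. On the coding length, a scale added after the data were seen, the shares were again without overlap but larger for the minor chains, at 1.38% and 3.89% for Itgb3 and 4.85% and 6.63% for Itgb8.

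**Figure D3:**
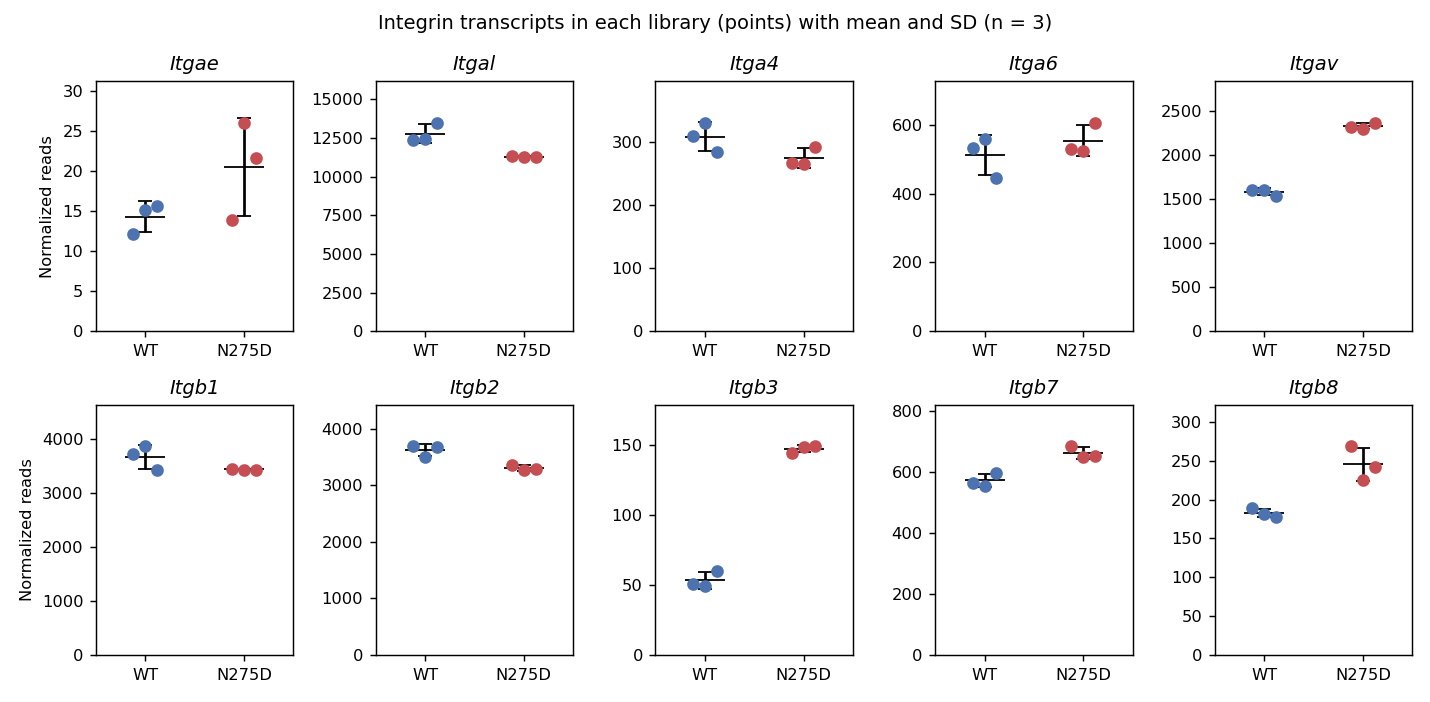
Each panel plots the normalized reads (y axis, from 0) of 1 integrin gene in the 3 WT and 3 N275D libraries as points, with the mean and SD. The panels of Itgav, Itgb3, Itgb7 and Itgb8 have every N275D library above the WT libraries, those of Itgal and Itgb2 have every one below, and the other 4 overlap.

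The β7 integrins carry T cells into and within the gut wall, and of their 3 genes the shared β chain rose while neither alpha chain was called. Itgb7 (chr15:102215994-102233405, minus strand) was 564, 555 and 596 normalized reads in WT and 683, 649 and 651 in N275D. The N275D libraries were all higher by a small amount, 572 ± 21.7 against 661 ± 19.0 (SD, n = 3), a ratio of 1.16 and a log2 fold change of 0.21 (SE 0.06, 95% interval 0.09 to 0.33, limma adjusted p = 0.00546).

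Itga4, the α4 chain that pairs with β7 or β1 (chr2:79255426-79333114, plus strand), was 310, 331 and 285 normalized reads in WT and 267, 265 and 292 in N275D. The genotypes overlapped, since WT library 3 lay below N275D library 3. The log2 fold change was -0.17 (SE 0.08, 95% interval -0.33 to -0.00, limma adjusted p = 0.0866). Without WT library 3 it was -0.22 and passed the test (limma adjusted p = 0.0206), and it also passed under quantile normalization, at -0.23 (limma adjusted p = 0.0239). It did not pass in the other alternatives of the 14 tried, and was smallest in size, -0.11, without WT library 2 (limma adjusted p = 0.285). Cerkl lies on the opposite strand with 1124 shared exon bases and was at 15.9 and 20.6 normalized reads.

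Itgae, the αE chain known as CD103 and a marker of tissue-resident T cells and of some dendritic cells (chr11:73090505-73147449, plus strand), was barely detected. It had 12.1, 15.1 and 15.7 normalized reads in WT and 14.0, 26.1 and 21.7 in N275D. N275D library 1 lay inside the WT range and the other 2 above it, and the log2 fold change of 0.46 had an interval from -0.13 to 1.05 (SE 0.28, limma adjusted p = 0.180). Without N275D library 2 the value was 0.28 and without N275D library 1 it was 0.70. At this depth neither a 2-fold rise nor no change falls outside that interval. Haspin, a gene nested on the opposite strand of Itgae with 0 shared exon bases, was at 404 and 406 normalized reads.

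Both chains of LFA-1 fell by small amounts. Itgal (chr7:127296139-127335137, plus strand) was 12381, 12445 and 13484 normalized reads in WT and 11353, 11273 and 11257 in N275D. The N275D libraries were close together and all below WT, at 0.884 of the WT mean (log2 fold change -0.18, SE 0.04, 95% interval -0.25 to -0.10, limma adjusted p = 0.000877). Itgb2, the β2 chain that leukocyte integrins share (chr10:77530329-77565708, plus strand), was 3687, 3507 and 3684 in WT and 3361, 3270 and 3293 in N275D. It stood at 0.912 of the WT mean without overlap (log2 fold change -0.13, SE 0.04, 95% interval -0.21 to -0.05, limma adjusted p = 0.00836). Its call is lost under quantile normalization, where the log2 fold change was -0.07 (limma adjusted p = 0.114). The other alpha partners of β2 were near the detection limit, with Itgam at 10.01 and 9.95 normalized reads and Itgax at 4.33 and 5.99, while Itgad was at 0 in 3 of 3 N275D libraries and at most 1.01 in WT.

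The β1 chain and its α6 partner were not called. Itgb1 (chr8:128685654-128733579, plus strand) was 3732, 3871 and 3439 normalized reads in WT and 3458, 3442 and 3429 in N275D. The 3 N275D libraries were nearly equal, and WT library 3 lay among them while the other WT libraries were higher. The log2 fold change was -0.09 (SE 0.04, 95% interval -0.19 to -0.00, limma adjusted p = 0.0813). Without WT library 3 it was -0.14 and passed the test (limma adjusted p = 0.000719), whereas without WT library 2 it was -0.06 (limma adjusted p = 0.320) and under quantile normalization -0.03 (limma adjusted p = 0.621).

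Itga6 (chr2:71786886-71858427, plus strand) was 534, 559 and 447 normalized reads in WT and 531, 525 and 606 in N275D. The genotypes overlapped and the spread within each was wider than the difference between them, with a log2 fold change of 0.11 (SE 0.08, 95% interval -0.06 to 0.29, limma adjusted p = 0.257). Leaving out 1 library moved this value between 0.02 (without WT library 3) and 0.18 (without WT library 2), and it was 0.05 without N275D library 3. It passed the test in none of these fits.

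Whether the 2 chains of a dimer moved by the same amount was asked within each library for 8 known pairs, as the log2 of the alpha value minus the log2 of the beta value. In 4 pairs the genotypes did not overlap, each with an exact two-sided permutation p of 0.1, the smallest that 3 against 3 libraries allow, and 0.2 after Benjamini-Hochberg adjustment over the 8 pairs. No pair could therefore pass a threshold of 0.05. Of all genes taken singly, 57.7% did not overlap between the genotypes, and the share among ratios of other gene pairs was not computed. The Itgav to Itgb3 ratio was 4.96, 5.0 and 4.66 in WT and 4.0, 3.94 and 3.98 in N275D, a change of -0.90. Itgb3 thus rose by more than its alpha partner, although Itgav kept the higher value in every library.

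The Itgav to Itgb1 ratio was higher in every N275D library than in any WT library, with means of -1.21 in WT and -0.56 in N275D, a change of 0.65. For Itga4 to Itgb7 the mean ratio went from -0.89 to -1.27, a change of -0.38 that placed every N275D library below WT. For Itga6 to Itgb1 it went from -2.84 to -2.64, a change of 0.21 with N275D above. Itga4, Itga6 and Itgb1 were not called on their own, and under quantile normalization the Itga6 to Itgb1 change was 0.12.

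The other 4 pairs overlapped. The Itgal to Itgb2 ratio was 1.82 ± 0.0629 in WT and 1.77 ± 0.0148 in N275D (SD, n = 3; exact permutation p = 0.4), a change of -0.04, while both chains fell. The Itgav to Itgb8 ratio changed by 0.14 (exact permutation p = 0.2), while both chains rose. Itga4 to Itgb1 changed by -0.07 (exact permutation p = 0.3), and Itgae to Itgb7 by 0.25 (exact permutation p = 0.5) with wide scatter from the low Itgae values. A p that misses the threshold does not show that these chains moved alike.

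**Figure D4:**
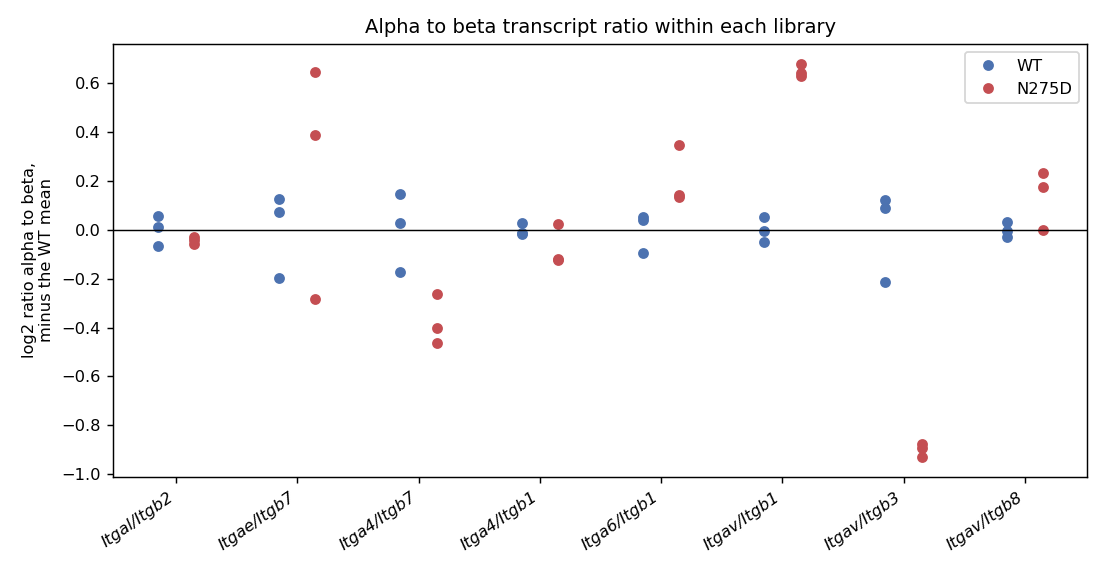
Each point is 1 library's log2 ratio of alpha to beta normalized reads, minus the WT mean of that pair (y axis), for 8 integrin pairs (x axis). The N275D points of Itgav/Itgb1 lie above WT around 0.65 and those of Itgav/Itgb3 below WT around -0.90, whereas those of Itgal/Itgb2 lie within the WT range.

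Of the 16 other integrin subunits, 8 reached the level for testing, and 4 of these rose and 1 fell, and their median log2 fold change was 0.36. The share called was 62.5% of these subunits, 60% of the activation genes, 65% of the signalling genes, 71.4% of the ligands and 57.1% of the membrane partners described next, beside 50.9% of all genes (24.7% higher and 26.1% lower). Itga7, an alpha partner of β1 that binds laminin, went from 165 ± 13.2 to 578 ± 23.2 normalized reads (log2 fold change 1.80, SE 0.08, limma adjusted p = 2.07e-11). Its values were 152, 163 and 179 in WT and 588, 594 and 551 in N275D, which do not overlap. Itga2, the collagen-binding α2 chain, went from 31.6 ± 6.84 to 54.4 ± 9.16 (log2 fold change 0.77, limma adjusted p = 0.00318). Itga3, another laminin-binding partner of β1, was the one that fell, from 13230 ± 439 to 10909 ± 114 (log2 fold change -0.28, limma adjusted p = 5.62e-06).

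Genes that switch integrins on or off from inside the cell were mixed, with 10 of 25 tested genes higher and 5 lower, and a median log2 fold change of 0.02. Sipa1l1, a GTPase-activating protein that turns Rap off, rose from 1255 ± 43.2 to 2595 ± 18.8 normalized reads (log2 fold change 1.05). Cyth1, the gene of cytohesin-1, which acts on the β2 tail, rose from 1973 to 2805 (0.51). Cytip, the gene of a protein that binds cytohesin-1, rose from 6544 to 9212 (0.49). Rapgef1, an exchange factor for Rap1, fell from 4822 to 3879 (-0.31), Tln2, which encodes the second talin, from 160 to 125 (-0.36), and Itgb1bp1, a binder of the β1 tail, from 768 to 640 (-0.26). The main talin and kindlin genes of T cells were not called, with Tln1 at 8488 ± 79.4 and 8223 ± 190 and Fermt3 at 6912 ± 418 and 6896 ± 121 (limma adjusted p = 0.269 and 0.976).

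Genes that carry the signal from bound integrins to the cytoskeleton split likewise, with 7 of 20 higher and 6 lower and a median of 0.02. Ptk2, the gene of focal adhesion kinase, rose from 178 ± 23.5 to 307 ± 26.1 normalized reads (log2 fold change 0.79). Vcl, which encodes vinculin, rose from 423 to 580 (0.46), and Lims1, the gene of the adapter PINCH1, from 1180 to 1378 (0.23). Those that fell most were Bcar1, which encodes the scaffold p130Cas, from 214 to 173 (-0.30), the actin cross-linker gene Actn4 from 11055 to 9200 (-0.26), and Git1, an adapter of paxillin, from 1980 to 1656 (-0.26).

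Among the genes that encode integrin ligands, 5 of 14 tested rose and 5 fell, with a median of 0.28. Which cells of the cultures held these transcripts was not tested. Fn1, the gene of fibronectin, a ligand of α4β1 and the αV integrins, rose from 185 ± 16.9 to 417 ± 18.9 normalized reads (log2 fold change 1.17), and the laminin chain gene Lama5 from 217 to 445 (1.03). Tgfb3, whose latent product binds αV dimers, rose from 20.7 to 33.5 (0.69). Tgfb1, the other TGF-β gene of this list and far higher in level, was called lower, from 3753 to 3441 (-0.12, limma adjusted p = 0.0254). Of the ligand genes of LFA-1, Icam1 fell from 1618 ± 62.9 to 1242 ± 39.9 (-0.38) and Icam2 from 372 ± 25.6 to 235 ± 2.28 (-0.66), and Icam5 was also called lower (-0.30). Icam4 and F11r, which encode further LFA-1 ligands, were not called, with log2 fold changes of 0.77 and 0.44. Spp1, which encodes osteopontin, a ligand of αV and α4 integrins, fell from 365 to 295 (-0.31).

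Of the 14 membrane proteins that associate with integrins, 6 rose and 2 fell, with a median of 0.07. Cd47, the integrin-associated protein that couples to αVβ3, rose from 2778 ± 87.1 to 3790 ± 58.0 normalized reads (log2 fold change 0.45). Plaur, the gene of the urokinase receptor, rose from 107 to 195 (0.86) and the tetraspanin gene Cd63 from 34.4 to 71.4 (1.04). Another tetraspanin gene, Cd81, fell from 3138 to 2446 (-0.36), and Cd226, which encodes a receptor that works with LFA-1, from 609 to 532 (-0.20). The 5 medians can be read beside that of all genes tested at -0.00.

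**Figure D5:**
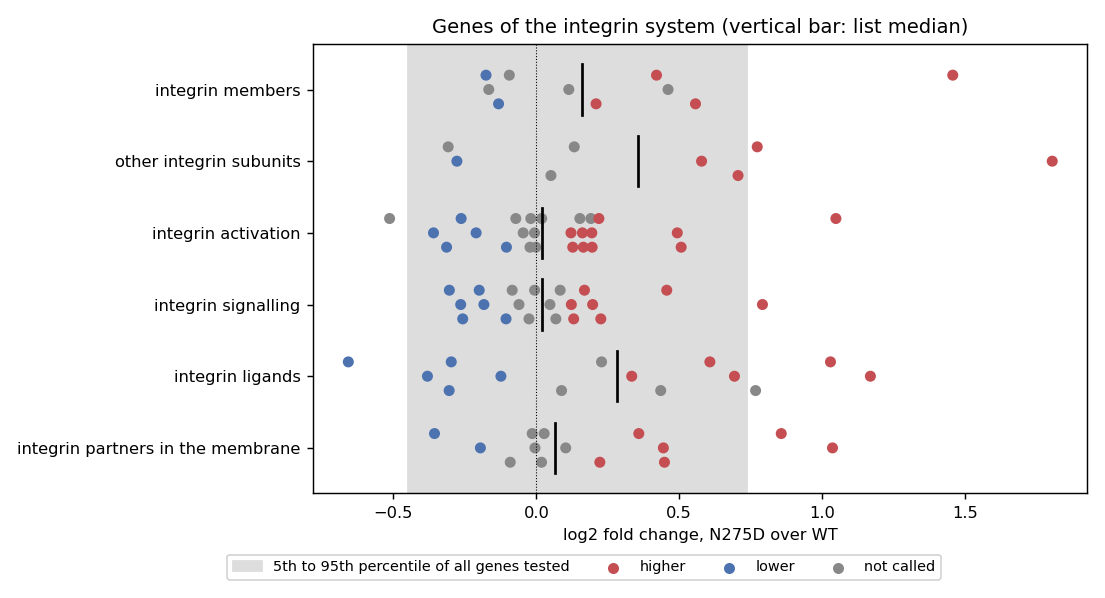
Each point is the log2 fold change (x axis, N275D over WT) of 1 tested gene, in rows for the members and 5 other lists of the integrin system (y axis), coloured by call, with the list median as a bar and the 5th to 95th percentile of all genes (-0.45 to 0.74) shaded. Itgb3 at 1.46 and Itga7 at 1.80 are the highest points beyond the shaded range. Other genes of the lists also lie outside it, such as Fn1 at 1.17 and Icam2 at -0.66. The medians run from 0.02 to 0.36.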

How the data were processed

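Naive CD4+ T cells of 2 genotypes were cultured and sequenced by the study, and reads were trimmed, aligned to mm10 with STAR, counted per gene with featureCounts and normalized with DESeq2 by the authors. Versions are not given in the sources used here. The values deposited by the authors are a normalized read signal per gene: in each library, every value was a whole multiple, within 1e-06, of 1 factor. The table's group averages, fold changes and q-values are the authors' own and were not used.

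Here log2(normalized reads + 1) was fitted with limma 3.58.1 in R 4.3.3 (empirical Bayes with a trend) over 11908 genes, those averaging 10 normalized reads or more, with Benjamini-Hochberg adjustment. Fold changes are on this scale and understate the change of low genes. The fit was tested on simulated data. Pairs of subunits were tested by an exact two-sided permutation of the 6 libraries. No libraries of a group agreed within sampling noise (chi-square 1.32 to 3.05 times its expectation, as a median over genes), so none was merged as a repeat deposit of 1 library; this does not show that they are independent. Intervals over libraries hold 3 values per genotype.

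The members and lists were chosen with earlier results of these data known. All 10 members were named, and from each other list the 3 called genes with the largest rise and the 3 with the largest fall. Itgb5, Itgb6, Itgam, Itgax, Itgad, Icam4, Icam5, F11r, Tgfb1, Tln1 and Fermt3 were named after their values were seen. The single CD8 T, NK and dendritic cell markers and the platelet markers Pf4 and Ppbp were also named after their values were seen. Coordinates and start site windows came from RefSeq (GRCm38.p6), with all 10 members matched, and lengths from GENCODE. The level of 1 further marker gene is not reported here.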

Additional observations from a re-analysis of the deposited data

How the results depend on the processing

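The alternatives were pseudocounts of 0.1 and 10, no filter or a mean of at least 100, TMM scaling, quantile normalization, no trend in limma, a replicate block, and leaving out each library. The count of called members stayed at 6 in all of them except without WT replicate 3, where it was 8 (range 6 to 8 over the left-out libraries): the lower members then numbered 4 (range 2 to 4), because Itga4 and Itgb1 were added. The same count covered other genes under quantile normalization, where Itgb2 lost its call (limma adjusted p = 0.114) and Itga4 gained one (limma adjusted p = 0.0239). The 4 higher members and the 1 at 2-fold kept those counts throughout, and no direction reversed. Under quantile normalization the ratio change of Itga4 to Itgb1 was -0.20, that of Itgav to Itgb3 -0.68 and that of Itgav to Itgb8 0.27. The number of pairs without overlap, 4, became 5 under quantile normalization and 4 to 6 over the left-out libraries. The cause of these differences was not tested. Over all genes, the count at 2-fold was 427, against 259 with a pseudocount of 10, 703 with no filter and 162 with a mean of at least 100.

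Samples with the same number did not deviate together (correlations of -0.05, 0.04 and -0.08). With 3 libraries per genotype this cannot show whether the numbers pair the samples. With the replicate block, 6 members and 5727 of all genes were called, in place of 6 and 6056, and 5 of 8 pairs moved the same way in all 3 numbered differences. Count tests on recovered reads (edgeR and DESeq2) were not run. With 3 libraries per genotype, the exact permutation test of a pair ratio cannot go below p = 0.1, and Itgae, at 12.1 to 26.1 normalized reads, has an interval too wide to place its change.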
